A study of Mus musculus with 18 samples.

Results

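The proteasome genes described here are the rows of the authors' deposited coexpression table whose symbol starts with Psm, a letter from a to g and a digit. This rule took 50 of the 23850 genes with a named probe set, and 48 of them encode proteasome subunits, activators, an inhibitor or assembly chaperones. The other 2, Psmc3ip, a recombination cofactor named after the subunit it binds, and the pseudogene Psmb5-ps, were kept apart from every count below. The rule used names only and no measured value. RNA was measured on arrays from spinal cords of mouse embryos. Every embryo was on a Swiss-Webster background and carried Aldh1l1-GFP, a transgene that places green fluorescent protein (GFP) under the astrocyte gene Aldh1l1, and the cords were dissociated with papain before cell sorting.

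Sorted GFP-positive cells (GFP cells) gave 3 arrays at embryonic day (E) E13.5, 2 at E14.5 and 3 at a late age that pools 2 of E17.5 and 1 of E18.5. Sorted live cells of the whole cord (whole) gave 3 arrays for each age, the late ones again 2 of E17.5 and 1 of E18.5. Titles say that whole took in all live cells, and the shared treatment text says GFP-negative. Following the titles, whole includes the GFP-positive population, and differences between the sorts are those of a part against a mixture that contains it. A further array of E14.5, mislabeled according to its title, was put in no group and compared with nothing. The titles call the replicates biological and name no litter or animal, so the p-values below measure the spread among these arrays. Array medians lay between 7.67 and 7.78 on the log2 scale. As a check of the sort, Aldh1l1 itself was higher in GFP cells by 2.19 ± 0.12 on the log2 scale (difference ± standard error) at E13.5, by 1.80 ± 0.14 at E14.5 and by 0.96 ± 0.12 late. Among 10 neuron genes the test called 10 lower in GFP cells at E13.5, 10 at E14.5 and 9 late, and among 10 astrocyte and radial glia genes 6, 7 and 9 higher.

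The proteasome degrades proteins that carry ubiquitin chains. Its 20S core is a barrel of outer alpha rings and inner beta rings, in which some of the beta subunits cut peptide bonds, and the 19S cap recognises, unfolds and feeds in the substrate. Assembly chaperones build core and cap without staying in the finished particle, activators of the PA28 and PA200 families replace the cap, and interferon-induced beta subunits replace the constitutive ones in cells of the immune system. Nfe2l1, named in the title of the series, is a transcription factor of the CNC-bZIP family that raises proteasome genes when proteasome activity is low. In dividing and differentiating progenitors the proteasome is known for clearing cell cycle regulators and transcription factors.

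Promoter sequences from RefSeq (250 bases before to 50 after the gene start, build GRCm38.p6) were found for 40 of the 48 genes and searched on both strands. TGACNNNGC, the core that CNC-bZIP factors bind with small Maf proteins, was found in 6 of the 40 genes (15.0%), against 14% of all genes in the table. CCAAT was found in 14 (35.0%, against 41.1%) and the GC box GGGCGG in 23 (57.5%, against 38.2%). Of the elements linked to interferon, GAAA repeated after any 2 bases was found in 5 (12.5%, against 4.0%) and TTCNNNGAA in 3 (7.5%, against 9.6%). The repeated GAAA was found in Psmb3, Psmd4, Psmd9, Psme1 and Psmg4, and in none of the interferon-induced beta subunits searched. The stretches below show the TGACNNNGC matches that lie before the gene start, because Nfe2l1 is the factor of the series title, the repeated GAAA of Psmd4 and the TTCNNNGAA match of Psmb8, because results below turn on these genes. Capitals mark the match. Each is given 5′ to 3′ on the strand of the gene, and a match to the motif's reverse complement is capitalised as it reads on that strand.
Psmb5 (chr14:54618018-54618058, minus strand): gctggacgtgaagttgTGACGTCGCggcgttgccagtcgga
Psmb6 (chr11:70525332-70525356, plus strand): ggcggactaaagagagTGACGGAGC
Psmc6 (chr14:45329581-45329621, plus strand): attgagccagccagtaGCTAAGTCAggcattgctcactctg
Psmd9 (chr5:123228143-123228183, plus strand): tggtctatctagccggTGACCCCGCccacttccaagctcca
Psmd12 (chr11:107479278-107479305, plus strand): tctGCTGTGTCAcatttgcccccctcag
Psmd4 (chr3:95042669-95042710, minus strand): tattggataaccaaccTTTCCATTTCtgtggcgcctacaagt
Psmb8 (chr17:34198082-34198122, plus strand): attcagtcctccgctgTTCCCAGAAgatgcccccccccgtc
The match began 47 bases before the start in Psmb5, 9 in Psmb6, 227 in Psmc6, 31 in Psmd9, 247 in Psmd12, 80 in Psmd4 and 97 in Psmb8. The remaining TGACNNNGC match, in Psme4, reached past the start. A match of letters is no evidence of binding.

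The values are log2 expression per probe set, and a level on 1 probe set was not compared with a level on another. Means over the 17 arrays ran from 6.49 for Psma3 to 12.28 for Psma6, and 28 of the 48 genes had a mean above 10. The alpha subunit Psma6 lay between 12.05 and 12.40 on every fitted array and was called in none of the 7 contrasts. The beta subunit Psmb4, with a mean of 12.24, lay between 11.80 and 12.44 and was likewise called in none, and Psma7 averaged 11.82. The probe sets of 4 genes lay under 7.73, the median of all values: Psma3, the testis subunit Psma8, the thymus subunit Psmb11 and the interferon-induced subunit Psmb8. The other members lay above it, so the shares over all genes given below come from a set with more dim genes and are not matched for level. Psma8 stayed between 6.33 and 6.94 over the arrays, Psma3 between 5.94 and 7.17. The RefSeq gene table lists pseudogenes or copies named after Psma5, Psmb5, Psmb6, Psmb7 and Psme2, so the values of these 5 may include signal of a copy. Probe set numbers of the members mostly ran with the chromosome. That of Psma3, a gene of chromosome 12, fell between those of Psmd6 and Psmb5 on chromosome 14. That of Psme2, a gene of chromosome 14, fell between those of Psmd12 and Psmc3ip on chromosome 11. Both probe sets may therefore measure a copy elsewhere in the genome, wherever Psma3 or Psme2 is named below.

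GFP cells at E13.5 had the highest of the 6 group means for 32 of the 48 genes (66.7%), against 15.2% of all genes, and whole at the late age had the lowest for 35 (72.9%), against 19.1%. Group means followed the order E13.5 above E14.5 above the late age in GFP cells for 34 (70.8%), against 17.6% of all genes, and in whole for 30 (62.5%), against 25.5%. Of the 5 interferon-induced and tissue subunits, 0 followed it in GFP cells.

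**Figure D1:**
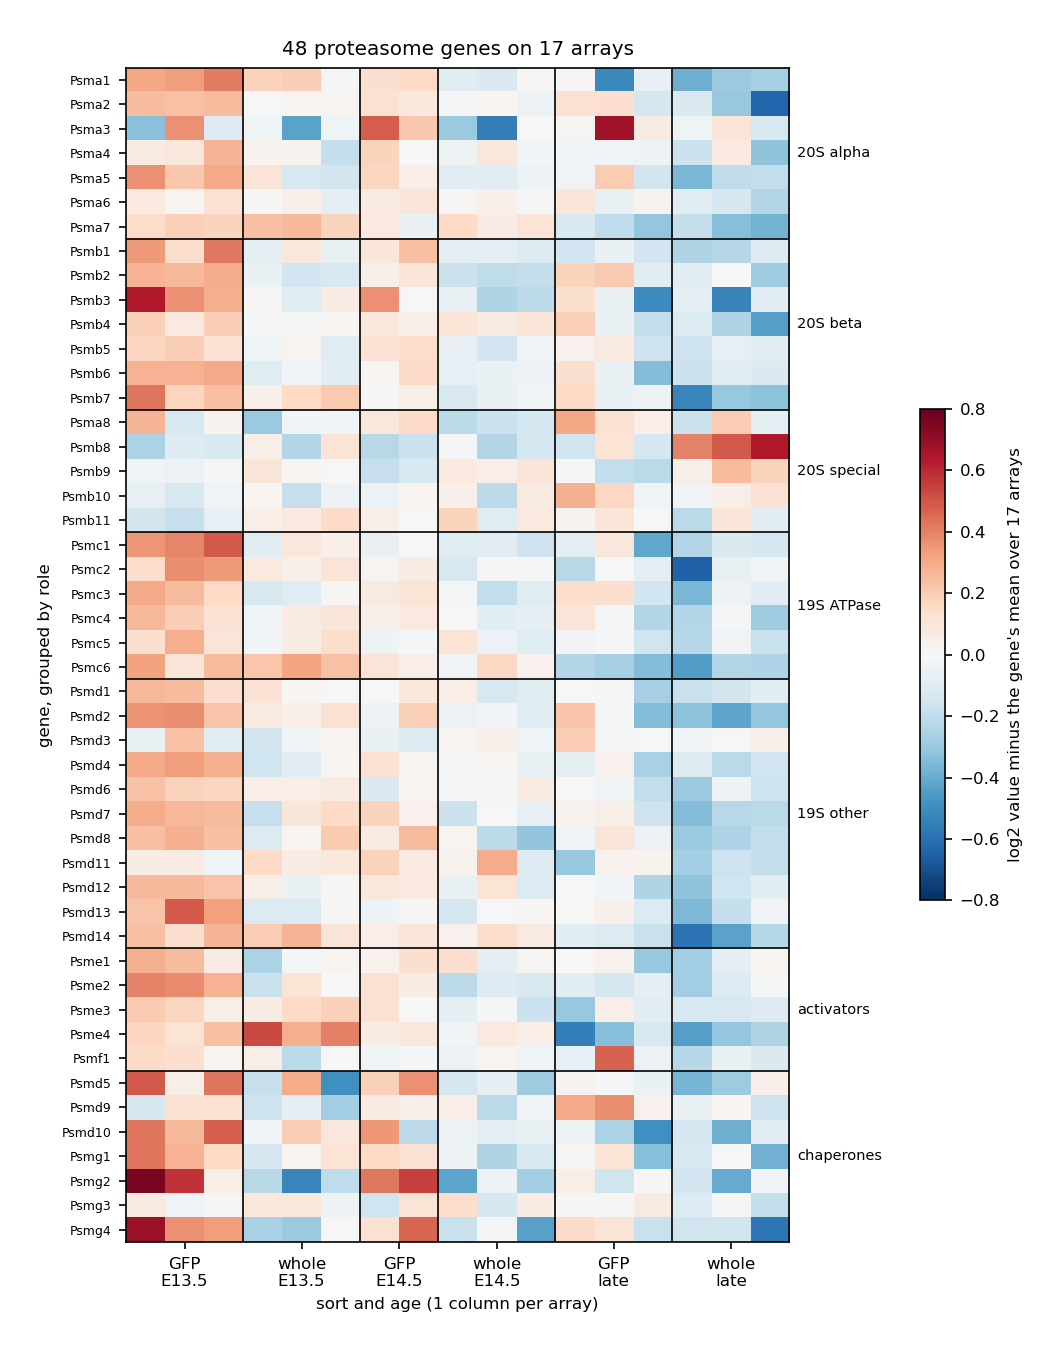
Log2 values of the 48 proteasome genes (rows, grouped by role) on the 17 arrays (columns, GFP cells left of whole at each age), each shown as the difference from the gene's mean over the 17 arrays, in red above and in blue below it. GFP cells at E13.5 are red for most genes and whole at the late age is blue for most, while Psmb8 is reddest on the late whole arrays (7.61, 7.70 and 7.85); 20S special stands for the interferon-induced and tissue subunits.

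At E13.5 the test called 11 of 48 proteasome genes higher in GFP cells than in whole (22.9%), against 11.1% of all genes. These 11 came from the core, the cap, the activators and the assembly chaperones, and 0 were called lower, against 8.01%. The test was limma with a Benjamini-Hochberg adjusted p under 0.05 over 23850 genes. Before adjustment, 23 of 48 were higher and 2 lower at a p under 0.05, beside 3702 higher and 3490 lower of 23850. The median difference over the 48 was 0.20 on the log2 scale, against -0.04 over all genes. The difference was above 0 for 39 of 48, against 41.9% of all genes. All GFP arrays lay above all whole arrays for 28 of 48, against 18.4% of all genes, and below them for 3, against 21.6%. In such bulk samples fewer cells of a type and less RNA per cell cannot be told apart.

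The largest differences at E13.5 were in assembly chaperones. Psmg2, which pairs with Psmg1 to scaffold the alpha ring, had 9.51, 9.33 and 8.80 in GFP cells against 8.53, 8.22 and 8.55 in whole. Every GFP array was above every whole array, the third GFP array being the lowest of its group, and the difference was 0.78 ± 0.16 (fold 1.72, adjusted p = 0.00166). Psmg4, which pairs with Psmg3 in the assembly of the same ring, had 9.82, 9.49 and 9.46 in GFP cells against 8.87, 8.83 and 9.13 in whole. The groups did not overlap, and the difference was 0.65 ± 0.15 (fold 1.57, adjusted p = 0.00463). The partners did not follow them past the threshold: Psmg1 differed by 0.29 ± 0.12 (adjusted p = 0.111) and Psmg3 by -0.03 ± 0.09 (adjusted p = 0.883). The chaperones of the 19S base, Psmd5, Psmd9 and Psmd10, differed by 0.45 ± 0.16, 0.21 ± 0.10 and 0.31 ± 0.13, none past the threshold. In all, 2 of 7 chaperones were higher. The authors' deposited table for E13.5, which lists 1875 genes, holds 2 of the 48, Psmg2 (fold 1.72, adjusted p = 0.0167) and Psmg4 (fold 1.57, adjusted p = 0.0204). It was made from the same arrays and adds no independent measurement. Their tables for E14.5 (552 genes) and the late age (683 genes) hold 0 of the 48, so they list none of the genes called here at those ages.

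In the 20S core at E13.5, 3 of 7 constitutive beta subunits and 1 of 7 alpha subunits were higher in GFP cells. Psmb2, a beta subunit without a cutting site, had 10.89, 10.88 and 10.91 in GFP cells against 10.56, 10.46 and 10.49 in whole. The GFP arrays lay close together and above all of whole, with a difference of 0.39 ± 0.09 (adjusted p = 0.00302). Psmb6, the subunit that cuts after acidic residues, had 11.52, 11.52 and 11.55 in GFP cells against 11.15, 11.22 and 11.16 in whole. The groups were apart by 0.35 ± 0.09 (adjusted p = 0.0121), and this call ended under quantile normalization (0.25, adjusted p = 0.0577). Psmb1 and Psma5 were the other 2 core subunits called. All 7 beta subunits had a difference above 0, from 0.14 to 0.44, and the alpha subunits ran from -0.05 to 0.35.

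In the 19S cap at E13.5, 2 of 6 ATPases and 2 of 11 other subunits were higher in GFP cells. Psmc1, an ATPase of the ring that unfolds substrates, had 11.30, 11.34 and 11.44 in GFP cells against 10.86, 11.04 and 10.99 in whole. The groups did not overlap and differed by 0.40 ± 0.10 (adjusted p = 0.011), but without GFP replicate 3 the adjusted p was 0.0507 and without whole replicate 1 it was 0.0587. Psmd4, a receptor for ubiquitin chains, had 10, 10.03 and 9.98 in GFP cells against 9.54, 9.61 and 9.71 in whole. The GFP arrays were tightly grouped above whole, with a difference of 0.39 ± 0.08 (adjusted p = 0.0019). Psmd13, a subunit of the lid, had 9.59, 9.85 and 9.69 in GFP cells against 9.25, 9.25 and 9.37 in whole. All GFP arrays were higher, by 0.42 ± 0.09 on average (adjusted p = 0.00347). The ATPase Psmc3 was the fourth cap gene called. Differences over the 11 other subunits ran from -0.07 to 0.42, with 10 of 11 above 0.

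Among activators at E13.5, 1 of 5 was higher in GFP cells. Psme2 forms the PA28 ring with Psme1, and the probe set named Psme2 may measure a copy. This probe set had 8.68, 8.66 and 8.56 in GFP cells against 8.10, 8.39 and 8.28 in whole. The groups did not overlap, and the difference was 0.38 ± 0.09 (adjusted p = 0.00387). The partner Psme1 had 11.34, 11.31 and 11.12 in GFP cells against 10.80, 11.04 and 11.08 in whole, also without overlap, and did not pass the threshold (0.28 ± 0.11, adjusted p = 0.0884). The nuclear form Psme3 had 10.04, 10 and 9.88 in GFP cells against 9.89, 9.99 and 10.02 in whole, and these values overlapped (0.01 ± 0.09, adjusted p = 0.958). Psme4, the PA200 activator, was the lowest of the 48 differences, with 10.58, 10.52 and 10.65 in GFP cells against 10.94, 10.70 and 10.81 in whole (-0.24 ± 0.10, adjusted p = 0.112).

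Cell composition differed at the same age. Of 10 mitosis genes 9 were higher in GFP cells at E13.5, with array means of 9.33 to 9.57 in GFP cells, against 8.63 to 8.80 in whole. Array means of the 10 neuron genes were 9.74 to 9.85 in GFP cells, against 11.03 to 11.11 in whole, and those of 8 erythroid genes, 6 of them called lower in GFP cells, 7.20 to 7.61, against 9.92 to 10.14. Their part in the proteasome differences was not tested. Shifting each array to a common median raised the count from 11 to 19 higher, leaving out the E18.5 arrays from the shared fit gave 17, and quantile normalization gave 7 higher and 1 lower. Over all genes the share of higher among the called was 58.1%, and 72.6% with the common median.

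At E14.5, the count of proteasome genes called higher was near that over all genes. The test called 4 of 48 higher in GFP cells (8.33%), against 10.3% of all genes, and 0 lower, against 8.22%. An unadjusted p under 0.05 marked 10 of 48 higher and 1 lower, beside 3516 higher and 3345 lower of 23850. The median difference was 0.10, against -0.03 over all genes, and the difference was above 0 for 37 of 48, against 43.7%. Both GFP arrays lay above whole for 25 of 48, against 21.3%, and below for 2, against 24.6%. The assembly chaperone Psmg2 had 9.17 and 9.30 in GFP cells against 8.33, 8.71 and 8.48 in whole. Both GFP arrays were above whole, by 0.73 ± 0.18 on average (adjusted p = 0.00637). Psmg4 had 9.25 and 9.59 in GFP cells against 8.95, 9.12 and 8.69 in whole, again without overlap (0.50 ± 0.17, adjusted p = 0.0441). Both chaperones were also called at E13.5, on other arrays. Psmd8, a lid subunit, had 10.07 and 10.25 in GFP cells against 10.02, 9.79 and 9.68 in whole (0.33 ± 0.11, adjusted p = 0.0429), the lower GFP array just above the highest of whole. The dim probe set named Psma3, an alpha subunit, had 6.98 and 6.71 in GFP cells against 6.20, 5.94 and 6.50 in whole (0.64 ± 0.22, adjusted p = 0.0498). By its number this probe set may measure a copy, so the call may not be one of Psma3.

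These 4 calls rest on few arrays. Without GFP replicate 2 none of the 48 was called, the adjusted p of Psmg2 being 0.0725 and that of Psmg4 0.381, and without any 1 of the other 4 arrays 2 were called. The Psmg4 call was also lost without whole replicate 1 (0.0789) or 3 (0.174). The Psmd8 call was lost without GFP replicate 1 (0.0563), GFP replicate 2 (0.336), whole replicate 2 (0.0977) or whole replicate 3 (0.167). The Psma3 call was lost without GFP replicate 1 (0.308), GFP replicate 2 (0.0878), whole replicate 1 (0.103) or whole replicate 2 (0.162). With the other settings included, 6 of 13 alternatives ended the Psmg4 call, 7 of 13 the Psmd8 call and 6 of 12 the Psma3 call. Quantile normalization gave 2 higher and 1 lower.

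At the late age the test called 3 of 48 proteasome genes higher in GFP cells than in whole (6.25%), against 4.6% of all genes, and 2 lower (4.17%), against 4.68%, both interferon-induced subunits. At an unadjusted p under 0.05, 14 of 48 were higher and 2 lower, beside 3029 higher and 2055 lower of 23850. The median difference was 0.12, against 0.04 over all genes, with 44 of 48 above 0, against 61.5% of all genes. All GFP arrays lay above whole for 8 of 48, against 13.1%, and below for 2, against 8.41%. Psmb7, the subunit that cuts after basic residues, had 11.21, 11 and 11.01 in GFP cells against 10.52, 10.75 and 10.72 in whole. The groups did not overlap, and the difference was 0.41 ± 0.09 (adjusted p = 0.0064), which a fit of these 2 groups alone left at an adjusted p of 0.0719. Psma2, an alpha subunit, had 10.89, 10.90 and 10.63 in GFP cells against 10.65, 10.46 and 10.13 in whole, with the third GFP array inside the range of whole (0.39 ± 0.10, adjusted p = 0.0245). Psmd14, the deubiquitinase of the lid, had 10.94, 10.92 and 10.85 in GFP cells against 10.44, 10.60 and 10.80 in whole, without overlap (0.29 ± 0.09, adjusted p = 0.0445).

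The late calls of Psma2 and Psmd14 depended on single arrays. The Psma2 call was lost without GFP replicate 1 (adjusted p = 0.0972), GFP replicate 2 (0.0981) or whole replicate 3 (0.113). The Psmd14 call was lost without GFP replicate 1 (0.131), GFP replicate 2 (0.115), whole replicate 1 (0.198) or whole replicate 2 (0.0962). With the other settings included, 5 of 14 alternatives ended the Psma2 call and 7 of 14 the Psmd14 call. Over the 48 genes, 8 were higher and 1 was lower without GFP replicate 3, the E18.5 array, 1 higher and 2 lower without GFP replicate 1, 1 and 1 without GFP replicate 2, and 2 and 1 without whole replicate 2. Quantile normalization gave 1 higher and 2 lower, and a fit of the 2 compared groups alone 0 higher and 1 lower.

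**Figure D2:**
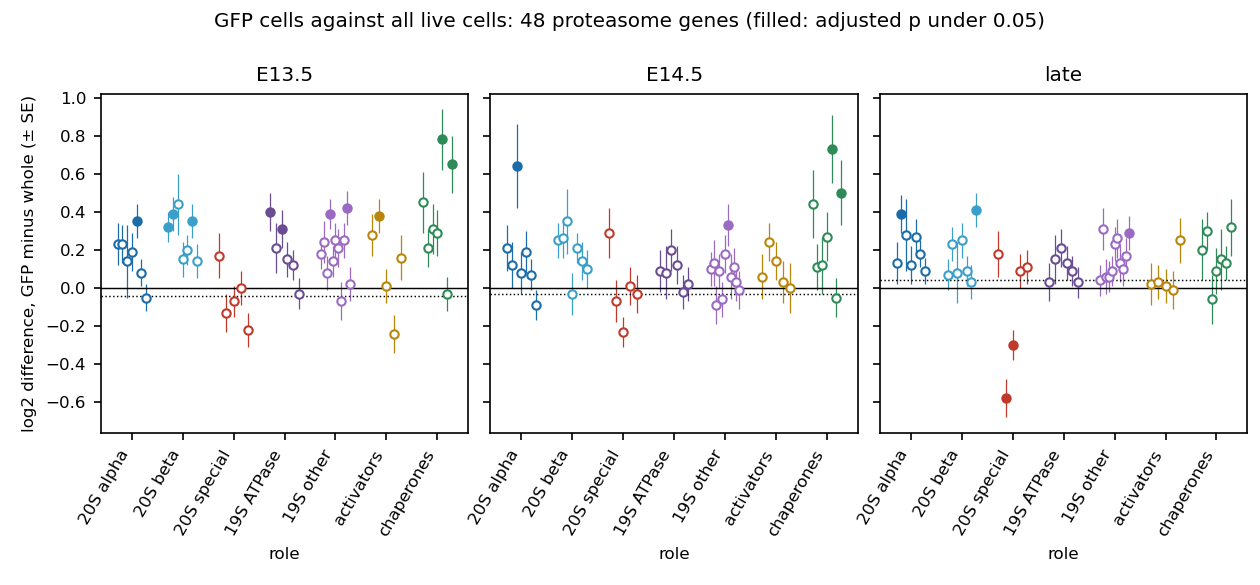
Log2 difference of GFP cells minus whole (vertical axis, with limma's standard error) for the 48 genes by role (horizontal axis) at each age, filled where the adjusted p was under 0.05, with the median over all genes as a dotted line. Filled points are spread over most roles at E13.5 (11 higher), and at the late age 2 filled points, Psmb8 (-0.58) and Psmb9 (-0.30), lie below 0.

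Within GFP cells the test called 21 of 48 proteasome genes lower at the late age than at E13.5 (43.8%), against 8.93% of all genes. It called 0 higher, against 7.3%. An unadjusted p under 0.05 marked 31 of 48 lower and 1 higher, beside 3349 lower and 3429 higher of 23850. The median difference was -0.28, against 0.05 over all genes, and the difference was below 0 for 39 of 48, against 39.6% of all genes. All late arrays lay below all E13.5 arrays for 34 of 48, against 14.2%, and above them for 2, against 19.9%. Lower were 8 of 11 other cap subunits, 3 of 6 ATPases, 3 of 7 constitutive beta subunits, 2 of 7 alpha subunits, 2 of 5 activators and the inhibitor and 3 of 7 chaperones. None of the 5 interferon-induced and tissue subunits was called, with 1 of 5 at an unadjusted p under 0.05. These GFP arrays at E13.5 are also those of the comparison with whole at that age, and the values of a gene in the 2 comparisons are not independent.

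In the core, Psma1, an alpha subunit, had 11.27, 10.75 and 11.20 in late GFP cells against 11.57, 11.60 and 11.68 at E13.5. No late array reached an E13.5 array, and the difference was -0.54 ± 0.11 (adjusted p = 0.00221). The constitutive beta subunit Psmb3 had 9.85, 9.66 and 9.22 in late GFP cells against 10.36, 10.09 and 10.01 at E13.5 (-0.58 ± 0.16, adjusted p = 0.0172). The lowest of these was the E18.5 array, and the call ended without it (adjusted p = 0.0968) and without E13.5 replicate 1 (0.0915). With the other settings included, 4 of 14 alternatives ended this call. Psmb6 fell to 11.37, 11.19 and 10.90 in late GFP cells, against 11.52, 11.52 and 11.55 at E13.5 (-0.38 ± 0.09, adjusted p = 0.00979; 0.0758 in a fit of these 2 groups alone).

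In the cap, the ATPase Psmc6 had 10.37, 10.34 and 10.26 in late GFP cells against 10.93, 10.70 and 10.86 at E13.5. The late arrays lay close together and below all of E13.5, with a difference of -0.50 ± 0.08 (adjusted p = 0.000405). Psmc1 had 10.87, 11.04 and 10.53 in late GFP cells against 11.30, 11.34 and 11.44 at E13.5, again without overlap (-0.55 ± 0.10, adjusted p = 0.00129). The ubiquitin receptor Psmd4 had 9.62, 9.73 and 9.44 against 10, 10.03 and 9.98 at E13.5 (-0.41 ± 0.08, adjusted p = 0.00155). The deubiquitinase Psmd14 had 10.94, 10.92 and 10.85 against 11.27, 11.16 and 11.30 at E13.5 (-0.34 ± 0.09, adjusted p = 0.0128), a call that ended without E13.5 replicate 3 (0.0526) or late replicate 3 (0.0506). Psmd13 fell by 0.37 on the log2 scale (adjusted p = 0.00994), and its adjusted p was 0.0606 without E13.5 replicate 2. The cap subunit Psmd3 was an exception to the direction, with a difference of 0.04 ± 0.09.

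Among activators and chaperones, Psme4 had 9.86, 10.07 and 10.29 in late GFP cells against 10.58, 10.52 and 10.65 at E13.5, without overlap (-0.51 ± 0.10, adjusted p = 0.00161). The Psme2 probe set, possibly of a copy, had 8.19, 8.14 and 8.20 against 8.68, 8.66 and 8.56 at E13.5. The late arrays lay close together and apart from E13.5 (-0.46 ± 0.09, adjusted p = 0.00118). Psmd10, a chaperone of the 19S base also known as gankyrin, showed the largest fall of the 48, with 10.35, 10.14 and 9.90 in late GFP cells against 10.82, 10.66 and 10.87 at E13.5 (-0.65 ± 0.13, adjusted p = 0.00249). Psmg2 had 8.80, 8.59 and 8.76 in late GFP cells against 9.51, 9.33 and 8.80 at E13.5. The third E13.5 array was level with the highest late one (-0.49 ± 0.16, adjusted p = 0.0397). The call ended when E13.5 replicate 1 (0.203) or 2 (0.136) or late replicate 1 (0.0542), 2 (0.13) or 3 (0.0754) was left out. With the other settings included, 9 of 14 alternatives ended it.

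Leaving out the E18.5 array of GFP cells lowered the count, as leaving out other single arrays did. The E18.5 array lay below both E17.5 arrays of GFP cells for 34 of 48 genes (70.8%), against 39.6% of all genes. In whole it did so for 12 of 48 (25.0%), against 41.8%. Without the E18.5 array of GFP cells 11 of 48 were called lower there. Without E13.5 replicate 2 it was 13, and without the E18.5 arrays of both sorts 12. Over all genes, leaving out single arrays gave 2749 to 3610 calls, higher and lower together. With every array there were 1740 higher and 2130 lower. The cause of these moves was not tested. No alternative called a member higher at the late age in GFP cells.

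**Figure D3:**
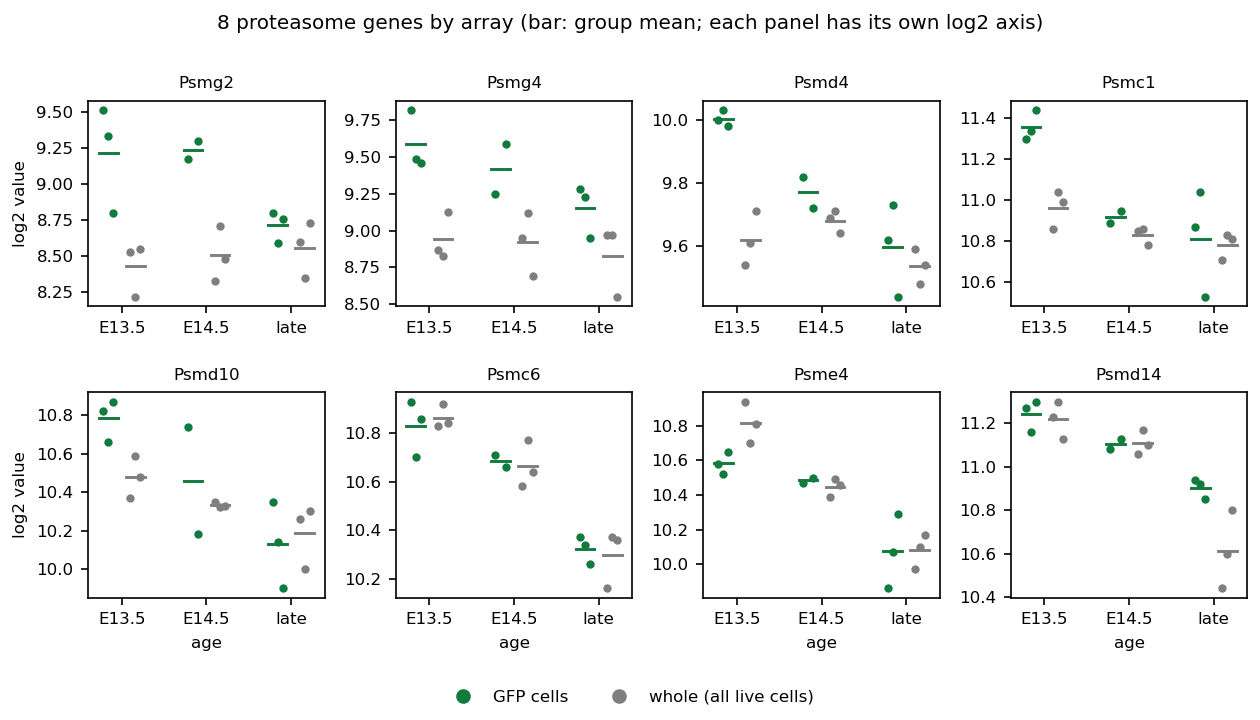
Log2 values (vertical axis, scaled separately in each panel) of 8 proteasome genes by age (horizontal axis), with 1 point per array, GFP cells in green left of whole in grey and a bar at each group mean. Psmg2, Psmg4, Psmd4 and Psmc1 have GFP arrays above whole at E13.5, and Psmc6, Psme4 and Psmd14 are low at the late age in both sorts.

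Between E14.5 and E13.5 in GFP cells, 0 of 48 genes were called higher by limma and 0 lower, against 0.914% and 0.591% of all genes. Before adjustment, 0 were higher and 8 lower at a p under 0.05, beside 1392 higher and 1323 lower of 23850. The difference was below 0 for 40 of 48, against 50.2% of all genes, with a median of -0.14 against 0.00. Both E14.5 arrays lay below all E13.5 arrays for 25 of 48, against 16.6%, and above them for 2, against 16.2%. The smallest adjusted p was that of Psmc1, with 10.89 and 10.95 at E14.5 against 11.30, 11.34 and 11.44 at E13.5 (-0.44 ± 0.11, adjusted p = 0.0745), whose groups did not overlap. A fit of these 2 groups alone, leaving out dim genes or leaving out the E18.5 arrays each called 1 of 48 lower. Array means of the 10 mitosis genes in GFP cells were 9.33 to 9.57 at E13.5, 8.57 to 8.65 at E14.5 and 8.97 to 9.39 at the late age, so they were lowest at the middle age, where 8 of 10 were called lower than at E13.5. Their part in the proteasome differences was not tested.

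In whole the test called 12 of 48 proteasome genes lower at the late age than at E13.5 (25.0%), against 9.99% of all genes, and 1 higher, against 10.2%. The median difference was -0.17, against -0.03 over all genes, with 40 of 48 below 0, against 56.3%. All late arrays lay below E13.5 for 24 of 48, against 18.3%, and above for 1, against 15.2%. Psme4 had 9.97, 10.10 and 10.17 in late whole against 10.94, 10.70 and 10.81 at E13.5, with a wide gap between the groups (-0.74 ± 0.10, adjusted p = 2.97e-05). Psmd14 had 10.44, 10.60 and 10.80 in late whole against 11.23, 11.30 and 11.13 at E13.5 (-0.61 ± 0.09, adjusted p = 6.38e-05). Psmc6 had 10.16, 10.37 and 10.36 against 10.83, 10.92 and 10.84 at E13.5 (-0.56 ± 0.08, adjusted p = 8.17e-05). None of these 3 genes had overlapping groups. The alpha subunit Psma7 had 11.63, 11.48 and 11.44 in late whole against 12.06, 12.08 and 12.00 at E13.5 (-0.53 ± 0.07, adjusted p = 5.24e-05), and Psmb7 had 10.52, 10.75 and 10.72 against 11.09, 11.21 and 11.26 (-0.53 ± 0.09, adjusted p = 0.000357). In both, every late array was below every E13.5 array.

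Psma1 had 10.87, 10.97 and 11 in late whole against 11.45, 11.46 and 11.25 at E13.5, again without overlap (-0.44 ± 0.11, adjusted p = 0.00722). The other genes called lower in late whole were Psma2, Psmd2, Psmd7, Psmd8, Psmd11 and Psme3, with differences from -0.43 to -0.25. The calls of Psmd8 and Psme3 ended under most alternatives. That of Psma2 ended under 5 of 14, among them without E13.5 replicate 2 (0.053) or 3 (0.053) or late replicate 3 (0.0949). The count was 7 of 48 lower without E13.5 replicate 2, without E13.5 replicate 3 or under quantile normalization. Array means of the neuron list were 9.79 to 10.07 in late whole and 11.03 to 11.11 at E13.5, with 9 of 10 genes called lower. Those of the mitosis list were 9.12 to 9.28 in late whole and 8.63 to 8.80 at E13.5, with 6 of 10 called higher. In the same contrast 9 of 10 astrocyte and radial glia, 8 of 10 endothelial and 10 of 10 microglia genes were called higher. Of 8 erythroid genes 2 were called lower. The part of these shifts in the proteasome values was not tested.

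The comparisons of age in GFP cells and in whole share no array. Of the genes called lower with age, 7 were called in both sorts, Psma1, Psma7, Psmc6, Psmd2, Psmd7, Psmd14 and Psme4, which is 33.3% of the 21 in GFP cells and 58.3% of the 12 in whole. Over all genes tested, 1090 were called lower in both, 51.2% of the 2130 in GFP cells and 45.8% of the 2382 in whole. A difference between the sorts in the size of the fall was not shown. The interaction is the late difference of GFP minus whole less that at E13.5. It was called for 0 of 48 genes by limma, against 1.6% of all genes higher and 2.99% lower. Before adjustment, 3 of 48 were higher and 7 lower at a p under 0.05, beside 2298 higher and 2103 lower of 23850. The smallest adjusted p was 0.103, for Psmb8 (-0.44 ± 0.14). Psmg2 had an interaction of -0.62 ± 0.22 (adjusted p = 0.131), Psmd4 of -0.33 ± 0.11 (0.115), Psme2 of -0.35 ± 0.12 (0.123) and Psmc1 of -0.36 ± 0.15 (0.182). Without GFP replicate 3 at E13.5, or without GFP replicate 1 at the late age, 1 gene was called lower.

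**Figure D4:**
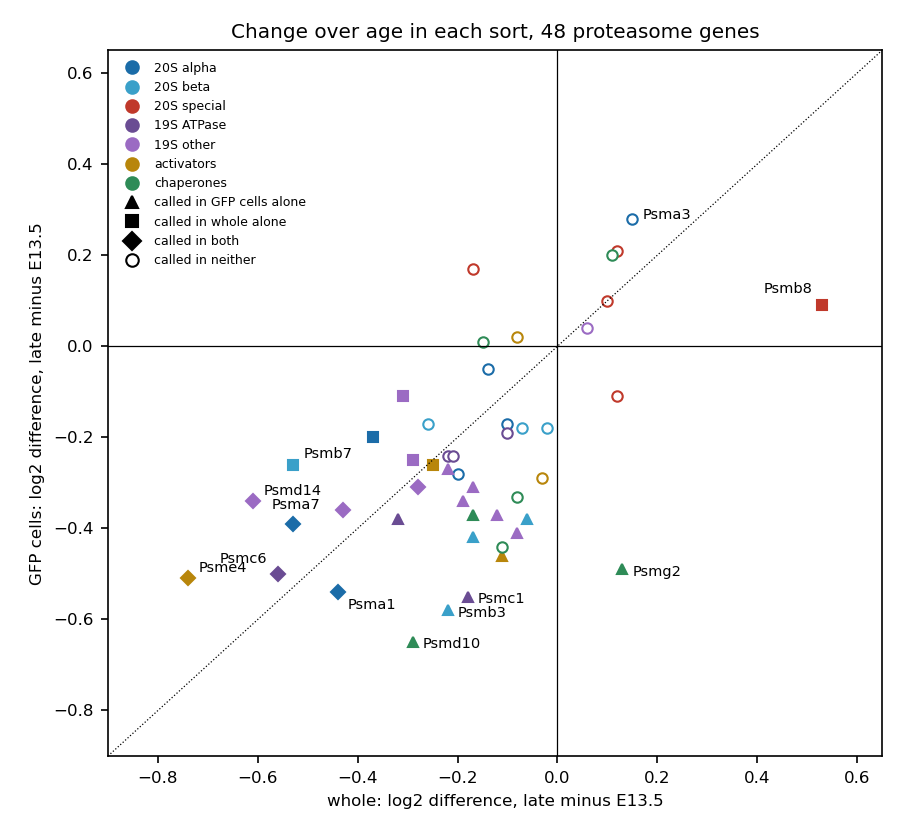
Log2 difference of the late age minus E13.5 in GFP cells (vertical axis) and in whole (horizontal axis) for the 48 genes, coloured by role and shaped by where the adjusted p was under 0.05, with equality as a dotted line. Most genes lie below 0 on both axes, 7 were called lower in both sorts, and Psmb8 stands apart at 0.53 in whole and 0.09 in GFP cells.

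The interferon-induced subunit Psmb8 was lower in GFP cells at the late age and rose with age in whole. Psmb8, which replaces Psmb5 in the immune form of the core, had 7.05, 7.32 and 7.07 in GFP cells against 7.61, 7.70 and 7.85 in whole at the late age. All GFP arrays were lower (-0.58 ± 0.10, adjusted p = 0.00137), and the adjusted p was at most 0.0275 in 13 alternatives. In whole its late values stood against 7.26, 6.98 and 7.32 at E13.5, which made it the 1 member called higher with age (0.53 ± 0.10, adjusted p = 0.000988). In GFP cells its late values stood against 6.96, 7.11 and 7.09 at E13.5, and the groups overlapped (Psmb8 0.09 ± 0.10, adjusted p = 0.591). Its level was dim, with a mean of 7.21 against the median of 7.73 over all values.

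Psmb9, which replaces Psmb6, had 9.14, 8.96 and 8.94 in GFP cells against 9.20, 9.41 and 9.33 in whole at the late age, without overlap (-0.30 ± 0.08, adjusted p = 0.0162). This call was lost under 6 of 14 alternatives. Among them were leaving out the E18.5 arrays (0.107) and a fit of these 2 groups alone (0.167). It was also lost without GFP replicate 2 (0.0693) or 3 (0.055), and without whole replicate 2 (0.0697). At E14.5 Psmb9 had 8.97 and 9.03 in GFP cells against 9.23, 9.21 and 9.26 in whole, below whole on both arrays. It did not pass the threshold (-0.23 ± 0.08, adjusted p = 0.0705). Psmb10, which replaces Psmb7, had 8.50, 8.38 and 8.19 in late GFP cells against 8.19, 8.27 and 8.33 in late whole, and the groups overlapped (0.09 ± 0.09, adjusted p = 0.645). The constitutive Psmb5 had 10.38, 10.42 and 10.18 in late GFP cells against 10.18, 10.28 and 10.26 in late whole, also with overlap (0.09 ± 0.08, adjusted p = 0.574). At E13.5 it had 10.52, 10.54 and 10.46 in GFP cells against 10.31, 10.37 and 10.25 in whole, all higher but short of the threshold (0.20 ± 0.08, adjusted p = 0.0809).

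Across the other contrasts the pairs gave few calls. At E14.5 Psmb5 had 10.46 and 10.49 in GFP cells against 10.28, 10.19 and 10.31 in whole, both above (0.21 ± 0.08, adjusted p = 0.0938). Psmb10 had 8.17 and 8.23 in GFP cells against 8.26, 8.01 and 8.29 in whole at that age, with overlap (0.01 ± 0.10, adjusted p = 0.959). With age in GFP cells Psmb7 had 11.21, 11 and 11.01 late against 11.48, 11.22 and 11.29 at E13.5, every late array being lower but short of the threshold (-0.26 ± 0.09, adjusted p = 0.0634). Psmb6 in whole had 11.07, 11.15 and 11.13 late against 11.15, 11.22 and 11.16 at E13.5 (-0.06 ± 0.09, adjusted p = 0.747).

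No PA28 gene was called between the sorts at the late age. The Psme2 probe set, possibly of a copy, had 8.19, 8.14 and 8.20 in late GFP cells against 8, 8.17 and 8.27 in late whole, with overlap (0.03 ± 0.09, adjusted p = 0.884). Psme1 had 11.06, 11.09 and 10.75 in late GFP cells against 10.78, 10.98 and 11.07 in late whole, also with overlap (0.02 ± 0.11, adjusted p = 0.941). The nuclear form Psme3 had 9.53, 9.88 and 9.74 in late GFP cells against 10.04, 10 and 9.88 at E13.5, without passing the threshold (-0.26 ± 0.09, adjusted p = 0.0537). The inhibitor Psmf1 was called in none of the 7 contrasts.

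Microglia genes differed in the contrasts that called Psmb8, and also between the sorts at E13.5 and E14.5, where Psmb8 was not called. At E13.5 the test called 9 of 10 lower in GFP cells, while Psmb8 differed by -0.13 ± 0.10 (adjusted p = 0.411). At E14.5 it called 10 of 10 lower, while Psmb8 differed by -0.07 ± 0.11 (adjusted p = 0.756). Of 10 microglia and macrophage genes, 10 were lower in GFP cells at the late age and 10 rose with age in whole, and 0 of 10 were called over age in GFP cells, with 0 at an unadjusted p under 0.05. Array means of the list were 7.43 to 7.56 in late GFP cells, against 9.59 to 10.37 in late whole, while at E13.5 those of GFP cells were 7.33 to 7.37, against 8.26 to 8.36 for whole. Endothelial genes were also lower in late GFP cells (9 of 10), with array means of 7.10 to 7.11 in late GFP cells and 8.05 to 8.16 in late whole. Their part in the values of Psmb8 and Psmb9 was not tested. The authors' deposited table assigns Psmb8 to the module noted cd45, after a marker of blood-derived cells. Its kME there (the correlation of a gene with the module's profile) was 0.92. Psmb9 was assigned to the purple module, noted dscam gabra, with a kME of 0.74, above its 0.66 for the cd45 module.

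**Figure D5:**
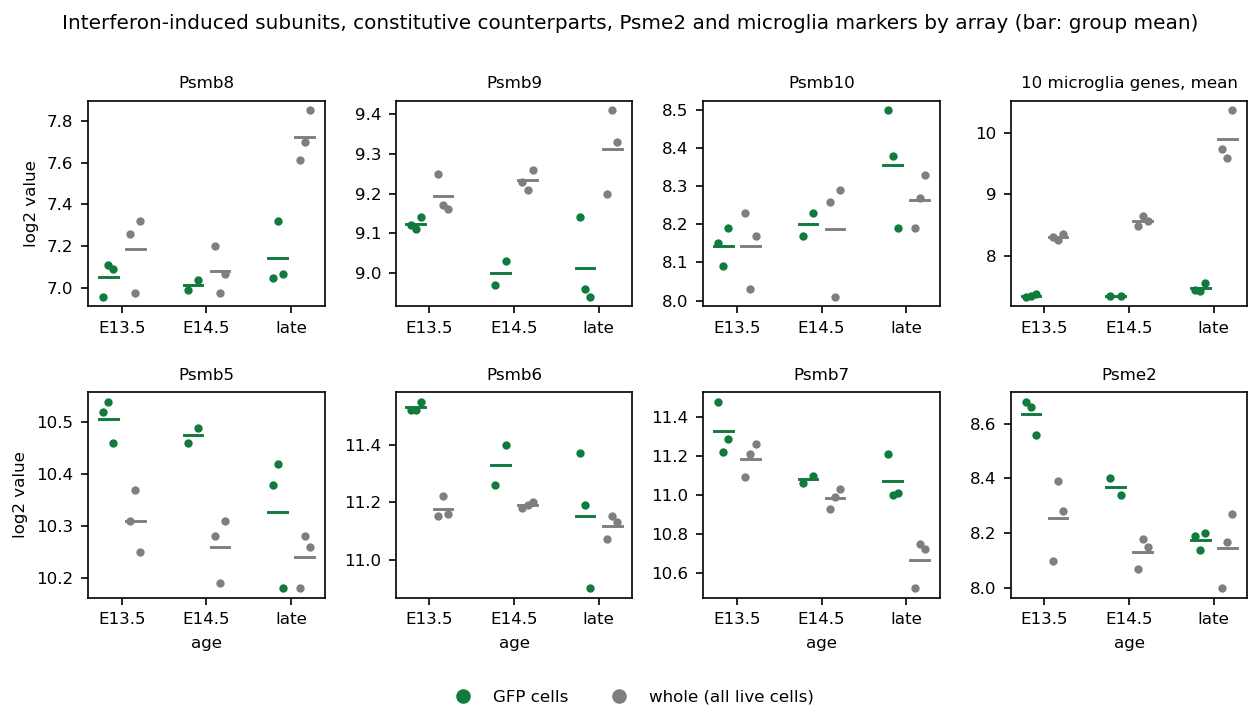
Log2 values (vertical axis, scaled separately in each panel) by age (horizontal axis) of the interferon-induced subunits Psmb8, Psmb9 and Psmb10, the constitutive subunits Psmb5, Psmb6 and Psmb7 below them, the activator Psme2 and the mean of 10 microglia genes, with 1 point per array, GFP cells in green left of whole in grey and a bar at each group mean. Psmb8 and the microglia mean are highest on the late whole arrays (7.61 to 7.85 and 9.59 to 10.37).

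The factor Nfe2l1 was above whole in GFP cells at both earlier ages. It had 10.24, 10.10 and 10.21 in GFP cells against 9.69, 9.81 and 9.69 in whole at E13.5. All GFP arrays were higher, by 0.45 ± 0.08 (adjusted p = 0.000329). At E14.5 it had 10.20 and 10.22 in GFP cells against 9.74, 9.65 and 9.68 in whole (0.52 ± 0.08, adjusted p = 0.000234), and at the late age 9.99, 10.05 and 9.84 against 9.82, 9.86 and 9.72, where the groups overlapped (0.16 ± 0.08, adjusted p = 0.242). Within GFP cells it differed by -0.22 ± 0.08 between the late age and E13.5, short of the threshold (adjusted p = 0.0549). Of 10 genes linked to Nfe2l1 and its activation, 2 were higher in GFP cells at E13.5, Nfe2l1 and its relative Nfe2l2 (0.67 ± 0.20, adjusted p = 0.0282). At E14.5 3 of 10 were higher, including Ngly1, which removes the sugars of Nfe2l1 (0.55 ± 0.15, adjusted p = 0.0134), and at the late age 0 of 10, with 1 lower at an unadjusted p under 0.05. Nfe2l2 and Ngly1 rose with age in GFP cells, by 0.66 ± 0.20 (adjusted p = 0.0345) and 0.53 ± 0.13 (adjusted p = 0.0109). In whole Nfe2l2 rose by 1.19 ± 0.20 (adjusted p = 0.000362), and Ngly1 had 0.26 ± 0.13 (adjusted p = 0.201). The interaction was not called for Nfe2l2 (-0.53 ± 0.29, adjusted p = 0.343) or Ngly1 (0.27 ± 0.19, adjusted p = 0.475).

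Proteasome partners without a Psm name were measured for 12 of 13. At E13.5 the redox protein Txnl1, which binds the cap, was higher in GFP cells (0.40 ± 0.08, adjusted p = 0.000955) and was the 1 of 12 called. With age in GFP cells 0 of 12 were called, with 3 lower at an unadjusted p under 0.05 and a median of -0.19. In whole 3 of 12 fell with age, Ublcp1, a phosphatase of the cap (-0.50 ± 0.13, adjusted p = 0.00853), Zfand5 (-0.49 ± 0.12, adjusted p = 0.00626) and the deubiquitinase Usp14 (-0.26 ± 0.09, adjusted p = 0.0425). Of 14 ubiquitin genes and shuttle factors, 5 fell with age in GFP cells and 5 in whole. The ubiquitin-activating enzyme Uba6 fell by 0.59 in GFP cells (adjusted p = 0.00109) and by 0.44 in whole (adjusted p = 0.00671) on the log2 scale. The shuttle factor Rad23b (-0.56 ± 0.13, adjusted p = 0.00775) and the unfolding enzyme Vcp (-0.43 ± 0.10, adjusted p = 0.00775) were among those that fell in GFP cells. Of 12 class I antigen presentation genes, 5 were higher and 1 lower in GFP cells at E13.5, H2-K1 by 1.07 ± 0.23 (adjusted p = 0.00287). At the late age 0 were higher (1 at an unadjusted p under 0.05) and 2 lower, B2m by -0.96 ± 0.19 (adjusted p = 0.00265) and H2-D1 by -0.34 ± 0.10 (adjusted p = 0.0363), beside the microglia values given above.

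In the authors' deposited coexpression table, 22 of the 48 genes (45.8%) were assigned to the black module, noted as another early module, against 4.84% of all genes, and 6 (12.5%) to the red module, noted as early with Nfe2l1, against 4.26%. The red genes were Psma5, Psmb2, Psmb5, Psmd5, Psmg2 and Psmg4. The brown module, noted as mostly not astrocyte, held 5 (10.4%, against 4.59%), Psma7, Psmc6, Psmd11, Psmd14 and Psme4. All 5 were called lower with age in whole, and each but Psmd11 also in GFP cells. For 9 of 48 (18.8%) there was no assignment, against 63.2% of all genes. Under the authors' strict assignment 43 of 48 had none, and 3 were black, 1 brown and 1 green. These scores were computed by the authors from the same arrays and add no independent measurement.

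The 2 rows kept apart differed. At E13.5 the pseudogene Psmb5-ps was higher in GFP cells (0.27 ± 0.07, adjusted p = 0.0186) and fell with age in GFP cells (-0.29 ± 0.07, adjusted p = 0.0131), on a probe set with a mean of 6.77. Psmc3ip was called in none of the 7 contrasts.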

How the data were processed

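Expression in 18 samples was deposited as log2 values for 35556 probe sets. The submitters' processing notes list oligo, RMA, limma and mm9, without versions or roles, so these log2 values were taken to be RMA values made by the authors. From the authors come also a deposited score for each gene in each module (kME), a count of genes per module, and, for listed genes, a fold and an adjusted p-value. How those were made is not given in the sources used here.

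To name probe sets, the per-sample values in the authors' E13.5 comparison (1875 genes) were first matched to probe sets by value. Module profiles were then fitted from 1848 of these genes by least squares. With them a kME was computed for each probe set from the 17 assigned arrays on the linear scale. This kME was matched to the deposited one within 1e-08. All 50 rows of the rule matched a single probe set. Of several probe sets of a gene (37 genes) the one with the highest mean was kept, which left 23850 genes, and 27 columns of per-sample values were not used. Group means of 17 arrays were fitted with limma 3.58.1 in R 4.3.3 (11 residual and 5.42 prior degrees of freedom) for 7 contrasts, with Benjamini-Hochberg adjustment over all genes at 0.05, and the fit was tested on simulated data. Every ± is limma's standard error on the log2 scale. The number of arrays limits the precision.

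Given with values per array were up to 6 called genes with the largest difference in each direction and contrast, the replaceable catalytic pairs, PA28 and the top and bottom 3 by mean level. Nfe2l1 and up to 4 called genes of each other list were also named. Further members with values per array, such as Psmd4 over age, were added after their values were seen. Members and lists were chosen with earlier results of these data known. Same-numbered arrays were not shown to be paired. Promoters came from RefSeq (GRCm38.p6), and the files' own build, mm9, was not used for coordinates.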

Additional observations from a re-analysis of the deposited data

How the results depend on the processing

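Among 40 differences of named proteasome genes, 553 values under the alternatives kept the direction in every case, 468 stayed on the same side of the threshold and 85 lost the call. Counts of the 48 genes called, higher and lower together, moved by over 1.5 times as follows. For GFP minus whole at E13.5 the 11 became 19 with each array shifted to a common median and 17 without the E18.5 arrays. At E14.5 the 4 became 7 with the common median and 2 with the replicate block, and lay between 0 and 2 without single arrays. At the late age the 5 became 3 under quantile normalization, 1 in a fit of these groups alone (1020 of all genes, against 2214) and 3 with the replicate block, and lay between 2 and 9 without single arrays. For late minus E13.5 in GFP cells the 21 became 12 without the E18.5 arrays, with 11 to 20 without single arrays. For E14.5 minus E13.5 the 0 became 1 without dim genes, 1 without the E18.5 arrays (561 of all genes, against 359) and 1 in a fit of these groups alone, while all genes gave 102 to 248 without single arrays. For late minus E13.5 in whole the 13 became 8 under quantile normalization, with 8 to 12 without single arrays, and the interaction gave 0 to 1. The cause of these moves was not tested. The replicate block changed no other count by over 1.5 times, and the numbers are not known to pair the arrays: the deviations of same-numbered arrays correlated between -0.08 and 0.12. Dim probe sets (Psma3, Psma8, Psmb8, Psmb11) limit what can be seen of those genes.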

Other observations

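On the array whose title calls it mislabeled, which the labels put in no group, Psmg2 had 8.48, Psmg4 8.85, Psmd4 9.60, Psmc1 10.81, Psmc6 10.88 and Psmb8 7.17 on the log2 scale, beside 9.67 for Nfe2l1 and 7.13 for Aldh1l1.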
